A study of Drosophila melanogaster with 107 samples.

Results

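γ neurons of the mushroom body, sorted from pupal brains of Drosophila melanogaster 3 h after puparium formation, were compared with γ neurons sorted at puparium formation (0 h). The comparison rests on 7 of the series' 107 libraries, 3 at 3 h and 4 at 0 h, chosen by their stage labels in the developmental time course. All 17050 genes of that table were considered, and the 6277 with a value of at least 10 in 3 or more of the 7 libraries were tested. The mushroom body is the associative learning centre of the insect brain, and its intrinsic neurons, the Kenyon cells, include the γ type, which is born first. In the larva each γ neuron sends a bifurcated axon into the vertical and medial lobes. Around puparium formation a pulse of the steroid hormone ecdysone acts through the ecdysone receptor EcR and its partner Usp, and these axon branches and the dendrites are then pruned back and later regrow in the adult pattern. The hours after 0 h precede the fragmentation of the axons.

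Both groups carried y,w/+; UAS-RedStinger/+;71G10/+, in which the 71G10 driver switches on RedStinger, a nuclear DsRed reporter, in γ neurons. The flies were reared at 25 °C without regard to sex. Brains were dissociated with collagenase and dispase at 29 °C and 1000 DsRed-positive cells were sorted per library. PolyA RNA was then sequenced from the 3′ end by MARS-seq, a method made for very small RNA inputs. The labels do not say whether replicates came from separate animals or sorts, so p-values measure the spread between libraries, which may be technical. A second set of libraries, scaled in a table of its own, was used as an independent check. It held controls of the same genotype at 6 h (2 libraries) and 0 h (3 libraries), and γ neurons labelled as expressing E75 RNAi, Sox14 RNAi or EcR-DN, a dominant-negative form of the ecdysone receptor, at 6 h (3 libraries each).

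The deposited values are the authors' normalized read counts, which summed to 1564285 to 1744163 per library at 3 h and to 1700101 to 1839482 at 0 h. Between 6752 and 7969 genes were above 0 per 3 h library and between 6844 and 7881 per 0 h library. Gaps between low values gave an estimate of units per read in some libraries. It was 2.157 in 3 h replicate 1, 1.427 in 3 h replicate 2 and 1.513 in 0 h replicate 3. A value of 2 in 3 h replicate 1 may thus be 1 read, and a 0 in these libraries may be a transcript missed. Replicate 1 at 3 h and replicate 3 at 0 h had the fewest genes and the lowest mean correlation with the rest of their group (r = 0.812 and 0.821 across genes, against 0.851 to 0.893 in the other 5 libraries). Without these 2 libraries 425 genes passed the test in place of 304, and 131 of the 135 called genes of the lists and rules described below passed again. The pair was chosen after seeing the data. Leaving out the libraries of lowest correlation lowers the spread within groups, which by itself favours more calls. Neuronal marker genes were present. The pan-neuronal RNA-binding protein gene elav was at 2193, 1725 and 1649 at 3 h and 2190, 2030, 2748 and 1915 at 0 h. The Kenyon cell transcription factor genes ey and dac were present in all 7 libraries. Other members of these lists changed. Of 11 neuronal markers fne was called higher and futsch lower, and of 9 Kenyon cell markers 5 were called lower, with values and shares given below. Of genes used as markers of other cell types, some were near 0 and others were present. The glial regulator repo was at 0, 11 and 6 at 3 h and at 0, 1, 2 and 4 at 0 h, and gcm was at 0 in all 7 libraries. Of the hemocyte list 9 of 16 genes were at 0 throughout, of the fat body list 8 of 17, of the photoreceptor list 8 of 14 and of the muscle list 5 of 16. Members that were present included the glial gene nrv2, given with the septate junction genes, drpr (106, 169 and 85 at 3 h and 94, 120, 160 and 75 at 0 h) and the hemocyte gene crq (140, 109 and 209 at 3 h and 138, 104, 30 and 92 at 0 h). The fat body gene Cp1 was at 332, 597 and 368 at 3 h and 693, 597, 596 and 751 at 0 h, and the muscle gene bt at 565, 303 and 100 at 3 h and 219, 375, 574 and 252 at 0 h. The libraries are bulk samples, so fewer cells with a transcript and less of it per cell cannot be told apart.

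Within 3 h, 304 of the 6277 tested genes (4.84%) changed at an adjusted p under 0.05 in limma with Benjamini-Hochberg adjustment, 111 higher (1.77%) and 193 lower (3.07%) than at 0 h. At an unadjusted p under 0.05 there were 1005. The median of all log2 changes was 0.04. Called increases had a median log2 change of 1.60, between 0.69 and 6.32, and called decreases a median of −1.82, between −6.28 and −0.64. On this scale, log2(value + 1), 36 increases and 79 decreases were larger than 2, which is 4-fold. In 303 of the 304 the 3 h and 0 h libraries did not overlap, against 8.67% of all tested genes not overlapping with 3 h higher and 7.87% with 3 h lower. The count of calls moved with the libraries: leaving out 1 of the 7 gave 210 to 356, and the decreases numbered 126 and 127 without 0 h replicates 1 and 2. The spans of 60 called genes overlap another tested gene, 14 of them another called gene, and 6 called genes have the same 7 values as another gene (CG11566 and stg1, CG30497 and CG45093, and a pair of U2 snRNA genes). Of 135 called genes that are named here or belong to the lists, 90 passed whichever single library was left out, and for the other 45 the loss is given beside the gene where it is named with a test.

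The 15 largest increases included a pair of innexins, a cadherin and an integrin. Inx2, which encodes an innexin subunit of gap junctions, was at 1540, 1593 and 1554 in the 3 h libraries, against 105, 125, 24 and 135 in the 0 h libraries (log2 change 4.25 ± 0.48 SE, limma adjusted p = 2.79e-04). The lowest 3 h value was 1540 and the highest 0 h value 135. A second innexin, ogre, was at 942, 763 and 468 in the 3 h libraries, against 19, 42, 72 and 46 in the 0 h libraries (log2 change 4.07 ± 0.42 SE, limma adjusted p = 1.77e-04). The gene bou, which encodes a Ly6-type membrane protein needed for septate junctions in epithelia, was at 725, 592 and 577 in the 3 h libraries, against 28, 36, 44 and 24 in the 0 h libraries (log2 change 4.25 ± 0.31 SE, limma adjusted p = 4.90e-05). It had the smallest adjusted p of all genes. The spans of bou and ogre overlap on opposite strands and Inx2 is the next tested gene, and how strand was used in counting is unknown here, so reads of bou and ogre may not be separable. The cadherin gene Cad96Cb was at 151, 204 and 153 in the 3 h libraries, against 3, 0, 0 and 4 in the 0 h libraries (log2 change 6.32 ± 0.80 SE, limma adjusted p = 5.49e-04). Its highest 0 h value was 4. The α-integrin gene scb was at 298, 383 and 342 in the 3 h libraries, against 20, 7, 45 and 11 in the 0 h libraries (log2 change 4.29 ± 0.54 SE, limma adjusted p = 5.08e-04).

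The other 10 of the 15 largest increases were of mixed function. Reck, a relative of a mammalian membrane-anchored inhibitor of metalloproteases, was at 75, 93 and 122 at 3 h and 0, 13, 9 and 2 at 0 h. The formin gene Fhos was at 24, 66 and 62 at 3 h and 3, 1, 0 and 0 at 0 h. For both the groups were apart, as the rule that chose them required, with values of 24 or more at 3 h and 13 or less at 0 h. CG17646 was at 190, 117 and 111 at 3 h and 5, 3, 18 and 4 at 0 h, and CG13055 at 449, 382 and 323 at 3 h and 25, 6, 51 and 18 at 0 h. The cytochrome P450 gene Cyp9c1 was at 78, 109 and 55 at 3 h and 1, 2, 2 and 32 at 0 h. MsR2, a receptor for the peptide myosuppressin, was at 78, 49 and 39 at 3 h and 1, 6, 5 and 2 at 0 h. Calbindin-like Cbp53E ranged widely at 3 h, with 153, 56 and 14, against 5, 3, 3 and 3 at 0 h. The palmitoyltransferase gene app was at 50 or more in each 3 h library and at 17 or less in each 0 h library (log2 change 3.45, limma adjusted p = 0.0263). Hex-A, which encodes hexokinase, the first enzyme of glycolysis, was at 144, 116 and 100 in the 3 h libraries, against 8, 15, 17 and 13 in the 0 h libraries (log2 change 3.12 ± 0.47 SE, limma adjusted p = 0.00152). Hsp67Ba, a small heat shock protein gene, was at 565, 929 and 722 in the 3 h libraries, against 55, 88, 48 and 83 in the 0 h libraries (log2 change 3.43 ± 0.30 SE, limma adjusted p = 9.40e-05). Several of these calls were lost when 1 library was left out. The calls of Fhos (limma adjusted p = 0.0726 to 0.107) and Reck (0.0588 to 0.0703) were lost without 3 h replicate 2 or 3, and that of MsR2 (0.0665 to 0.0697) without 3 h replicate 1 or 2. That of Cyp9c1 was lost without any 1 of the 3 h libraries or 0 h replicate 1 or 2 (0.0628 to 0.132), that of app without any 1 of the 3 h libraries or 0 h replicate 2 (0.065 to 0.136), and that of Cbp53E without 3 h replicate 1 or 2 or 0 h replicate 1, 2 or 4 (0.0614 to 0.192).

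**Figure D1:**
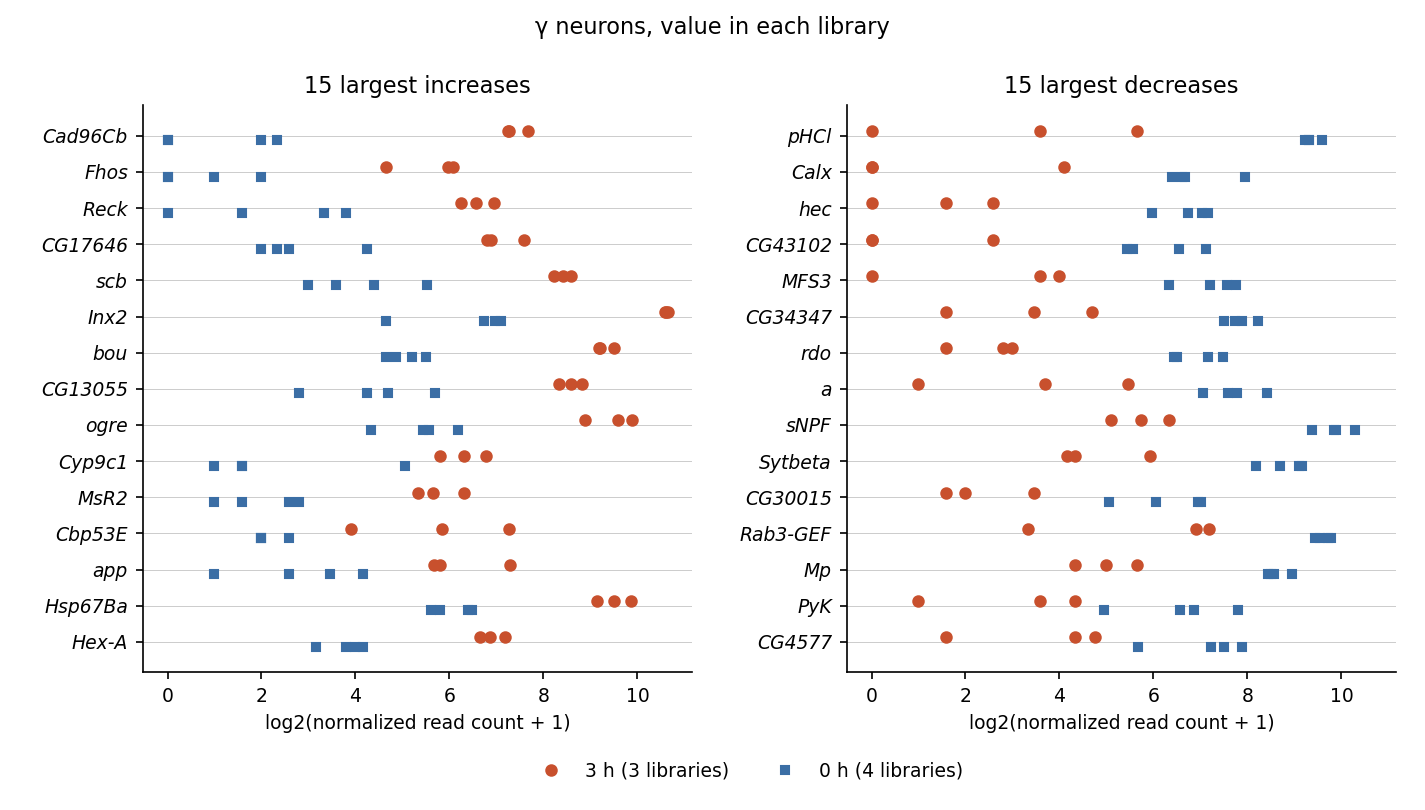
Each row is 1 of the 15 genes with the largest increase (left) or decrease (right) at 3 h against 0 h, with log2(normalized read count + 1) on the horizontal axis, 1 circle per 3 h library and 1 square per 0 h library. The rule that chose the 30 genes required that the circles and squares of a row do not overlap. The genes pHCl, Calx, hec, CG43102 and MFS3 reach 0 in at least 1 library at 3 h.

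The 15 largest decreases had varied known functions, and 6 of them follow in full. The chloride channel gene pHCl had the largest decrease and was at 11, 0 and 49 in the 3 h libraries, against 768, 634, 599 and 633 in the 0 h libraries (log2 change −6.28 ± 0.93 SE, limma adjusted p = 0.00141). Calx, which encodes a sodium-calcium exchanger, was at 0, 0 and 16 in the 3 h libraries, against 101, 245, 83 and 96 in the 0 h libraries (log2 change −5.54 ± 0.93 SE, limma adjusted p = 0.00326). It was listed at 0 in replicates 1 and 2 at 3 h, both among the libraries in which 1 read counts for more than 1 unit. Short neuropeptide F, sNPF, a peptide made by Kenyon cells, was at 52, 33 and 80 in the 3 h libraries, against 1244, 937, 660 and 916 in the 0 h libraries (log2 change −4.12 ± 0.32 SE, limma adjusted p = 5.26e-05). The highest 3 h value was 80 and the lowest 0 h value 660. Sytbeta, a synaptotagmin, was at 17, 19 and 60 in the 3 h libraries, against 572, 544, 412 and 289 in the 0 h libraries (log2 change −3.97 ± 0.43 SE, limma adjusted p = 2.55e-04). Rab3-GEF, which activates the synaptic vesicle GTPase Rab3, was at 9, 119 and 144 in the 3 h libraries, against 841, 873, 749 and 689 in the 0 h libraries (log2 change −3.81 ± 0.70 SE, limma adjusted p = 0.0062). Mp, a collagen of the XV/XVIII type, was at 19, 31 and 49 in the 3 h libraries, against 493, 379, 362 and 343 in the 0 h libraries (log2 change −3.62 ± 0.34 SE, limma adjusted p = 1.35e-04).

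The other 9 of the 15 largest decreases were low at 3 h. The receptor gene hec was at 2, 0 and 5 at 3 h and 141, 62, 130 and 106 at 0 h. The gene rdo was at 2, 7 and 6 at 3 h and 177, 141, 90 and 86 at 0 h, and a (arc) at 43, 1 and 12 at 3 h and 217, 191, 339 and 132 at 0 h. The transporter gene MFS3 was at 0, 11 and 15 at 3 h and 214, 147, 80 and 188 at 0 h. Of genes known by number, CG43102 was at 0, 0 and 5 at 3 h and 92, 46, 137 and 42 at 0 h, and CG34347 at 2, 10 and 25 at 3 h and 299, 211, 234 and 179 at 0 h. CG30015 was at 2, 3 and 10 at 3 h and 123, 65, 128 and 32 at 0 h and CG4577 at 2, 26 and 19 at 3 h and 148, 236, 179 and 50 at 0 h. In all of these the highest 3 h library stayed below the lowest 0 h library, as the rule that chose them required. PyK, pyruvate kinase, was at 11, 1 and 19 at 3 h and 222, 30, 93 and 116 at 0 h, a gap of 19 against 30 at its narrowest. The call of PyK was lost without 3 h replicate 2 or 0 h replicate 1 or 4 (limma adjusted p = 0.0746 to 0.104), and that of CG4577 without 0 h replicate 2 (0.0665).

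Of the ecdysone response genes that changed, most fell. Of 36 genes listed, 31 were tested, with a median log2 change of −0.39 (all genes 0.04). Of the 31, 7 were called lower (22.6%, against 3.07% of all tested genes) and 2 higher (6.45%, against 1.77%). EcR itself was at 168, 193 and 418 in the 3 h libraries, against 2633, 2974, 1018 and 2030 in the 0 h libraries (log2 change −3.07 ± 0.38 SE, limma adjusted p = 4.82e-04). The highest 3 h value, 418, was below the lowest 0 h value, 1018. Blimp-1, a transcriptional repressor induced by ecdysone, was at 188, 116 and 191 in the 3 h libraries, against 1267, 1724, 577 and 919 in the 0 h libraries (log2 change −2.68 ± 0.34 SE, limma adjusted p = 5.36e-04). The early-response transcription factor gene br (broad) was at 410, 306 and 282 in the 3 h libraries, against 987, 1272, 1509 and 1343 in the 0 h libraries (log2 change −1.94 ± 0.22 SE, limma adjusted p = 2.58e-04). Eip75B, which encodes the nuclear receptor E75, was at 10549, 9746 and 13627 in the 3 h libraries, against 25173, 27986, 20442 and 23974 in the 0 h libraries (log2 change −1.12 ± 0.18 SE, limma adjusted p = 0.00265). Here too no 3 h library reached the lowest 0 h value, and 303 of the 304 called genes had no overlap. The ETS factor gene Eip74EF was at 1993, 1758 and 2886 in the 3 h libraries, against 4614, 4845, 4772 and 4360 in the 0 h libraries (log2 change −1.10 ± 0.19 SE, limma adjusted p = 0.00373).

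A pair of genes known to be required for neuronal pruning in the fly moved least among the called members. Sox14, a transcription factor induced by EcR, was at 3347, 2408 and 3327 in the 3 h libraries, against 5562, 5313, 5872 and 3892 in the 0 h libraries (log2 change −0.77 ± 0.20 SE, limma adjusted p = 0.0443). Mical, an actin-disassembling enzyme induced by Sox14 during dendrite pruning, was at 1936, 1326 and 1740 in the 3 h libraries, against 3048, 2886, 3721 and 2339 in the 0 h libraries (log2 change −0.84 ± 0.20 SE, limma adjusted p = 0.0309). Both groups stayed above 1000, with no overlap, as in 303 of the 304 called genes. These calls were not stable. That of Sox14 was lost without any 1 library but 0 h replicate 4 (limma adjusted p = 0.0589 to 0.16) and that of Mical without 3 h replicate 2 or 3 or 0 h replicate 1 or 2 (0.0751 to 0.126). The increases were in Hr46 and ImpL1. Hr46 encodes the nuclear receptor Hr3, which acts between the early genes and ftz-f1 in the ecdysone cascade, and was at 811, 857 and 733 in the 3 h libraries, against 338, 390, 425 and 229 in the 0 h libraries (log2 change 1.24 ± 0.24 SE, limma adjusted p = 0.00791). Its span overlaps that of CG12912 on the same strand, which was also called higher. ImpL1, an ecdysone-inducible gene of imaginal discs, was at 22, 27 and 37 in the 3 h libraries, against 0, 0, 0 and 3 in the 0 h libraries (log2 change 4.36 ± 1.06 SE, limma adjusted p = 0.0329). Its call was lost without any 1 of the 3 h libraries or 0 h replicate 1 or 2 (limma adjusted p = 0.075 to 0.16).

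The other 22 tested members did not pass. The receptor partner gene usp was at 209, 181 and 203 at 3 h and 303, 289, 207 and 194 at 0 h (log2 change −0.30 ± 0.25 SE). Competence factor ftz-f1 was low, at 71, 3 and 16 at 3 h and 14, 3, 9 and 4 at 0 h (1.20 ± 1.02 SE). The factor gene Eip93F, which acts later in metamorphosis, was at 190, 413 and 210 at 3 h and 94, 248, 170 and 249 at 0 h (0.52 ± 0.38 SE). Kr-h1 was at 2029, 1328 and 1741 at 3 h and 1264, 1394, 1663 and 1118 at 0 h. The nuclear receptor gene Hr4 was at 2163, 2511 and 2805 at 3 h and 2793, 3182, 2824 and 2533 at 0 h, and Hr39 at 787, 602 and 979 at 3 h and 984, 1178, 1108 and 882 at 0 h. For these 6 the 3 h and 0 h values overlapped. Nearest to the threshold were vri (−0.99 ± 0.27 SE, limma adjusted p = 0.0566), Eip63F-1 (2.58 ± 0.70 SE, 0.0573) and ImpL3, lactate dehydrogenase (−3.17 ± 0.88 SE, 0.0635). The log2 changes of the remaining members were −0.70 for Hr78, 0.59 for crol, −2.08 for the ecdysone importer gene Oatp74D, 0.54 for Eip78C, −0.41 for Eip63E, −0.40 for the coactivator gene tai, 0.83 for Eip71CD and 0.30 for Hr51. Those of Eip55E (−0.66), rig (−0.36), Hr96 (−0.39), ImpE2 (0.31) and ImpE1 (−0.02) were in genes whose highest value in any library was 106. Without the 2 libraries of lowest correlation, a pair chosen after seeing the data, vri (limma adjusted p = 0.00637), Eip63F-1 (0.0206) and ImpL3 (0.00556) passed as well.

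**Figure D2:**
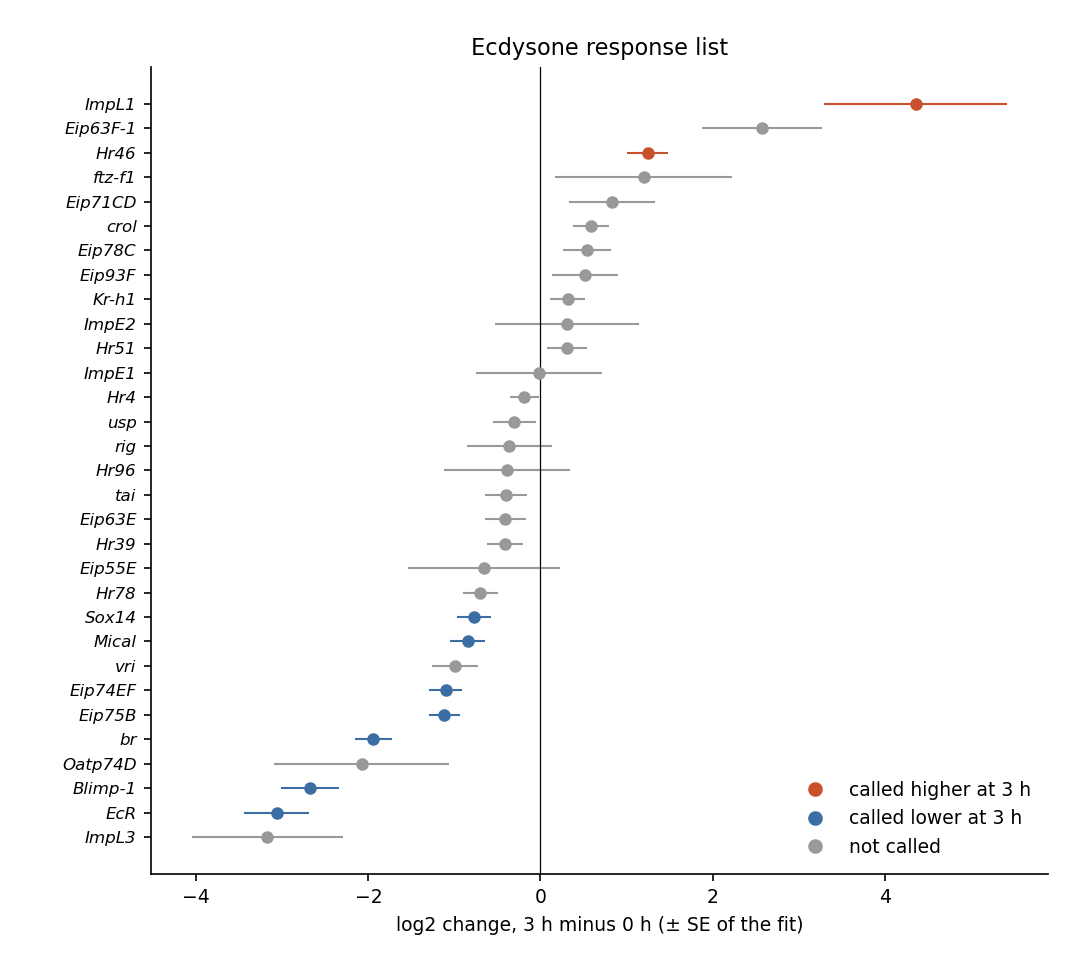
Points are the log2 changes of the 31 tested ecdysone response genes at 3 h minus 0 h, with bars of ± SE from the limma fit of 3 and 4 libraries, coloured by the call. The 7 called decreases run from EcR (−3.07) to Sox14 (−0.77), and ImpL1 (4.36) and Hr46 (1.24) are the called increases.

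Many receptors and channels that set excitability were lower at 3 h. Of 38 tested neurotransmitter receptor genes (53 listed), 14 were called lower (36.8%, against 3.07% of all tested genes) and 0 higher in limma, with a median log2 change of −0.68 and 22 at an unadjusted p under 0.05. Rdl, a GABA-gated chloride channel subunit, was at 168, 240 and 417 in the 3 h libraries, against 3288, 1711, 1185 and 2147 in the 0 h libraries (log2 change −2.92 ± 0.35 SE, limma adjusted p = 4.26e-04). The octopamine receptor gene Oamb was at 108, 133 and 181 in the 3 h libraries, against 570, 690, 675 and 489 in the 0 h libraries (log2 change −2.12 ± 0.25 SE, limma adjusted p = 3.13e-04). Dop1R2, a dopamine receptor that Kenyon cells use in memory, was at 712, 493 and 882 in the 3 h libraries, against 2341, 2380, 3734 and 1886 in the 0 h libraries (log2 change −1.89 ± 0.26 SE, limma adjusted p = 8.63e-04). The tyramine receptor gene TyrR was at 147, 86 and 87 in the 3 h libraries, against 387, 329, 507 and 338 in the 0 h libraries (log2 change −1.89 ± 0.28 SE, limma adjusted p = 0.00141). In each of these 4 the 3 h libraries lay below every 0 h library, and 303 of the 304 called genes had no overlap. Grouped by ligand after the values were seen, 8 of 14 tested receptors for biogenic amines were lower (57.1%, against 3.07% of all tested genes). Of 9 tested nicotinic acetylcholine receptor subunits 1 was lower (11.1%, against 3.07%), and 4 were at an unadjusted p under 0.05. The lower one, nAChRbeta1, was at 63, 21 and 93 at 3 h and 306, 231, 258 and 183 at 0 h. Without 0 h replicate 3, 2 of the 9 were lower and 1 higher. The difference between the 2 groups was not tested.

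Among 37 tested voltage-gated and related channels (47 listed) 10 were lower (27.0%, against 3.07% of all tested genes). In the same list 1 was higher (2.70%, against 1.77%), and the median was −0.50. The sodium channel gene para was at 166, 136 and 226 in the 3 h libraries, against 1202, 828, 856 and 787 in the 0 h libraries (log2 change −2.39 ± 0.24 SE, limma adjusted p = 1.77e-04). Task6, a leak potassium channel, was at 358, 423 and 390 in the 3 h libraries, against 1375, 1189, 1278 and 1301 in the 0 h libraries (log2 change −1.72 ± 0.18 SE, limma adjusted p = 1.77e-04). Shab, a delayed-rectifier potassium channel, was at 104, 40 and 150 in the 3 h libraries, against 734, 883, 1562 and 517 in the 0 h libraries (log2 change −3.30 ± 0.44 SE, limma adjusted p = 6.89e-04). The calcium channel subunit gene Ca-beta was at 114, 140 and 132 in the 3 h libraries, against 520, 425, 339 and 356 in the 0 h libraries (log2 change −1.65 ± 0.24 SE, limma adjusted p = 0.0013). In all 4 the groups were apart, as in 303 of the 304 called genes. The gene that rose was CngA, a subunit of cyclic nucleotide-gated channels, at 470, 689 and 586 in the 3 h libraries, against 34, 55, 157 and 101 in the 0 h libraries (log2 change 2.94 ± 0.44 SE, limma adjusted p = 0.00143).

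**Figure D3:**
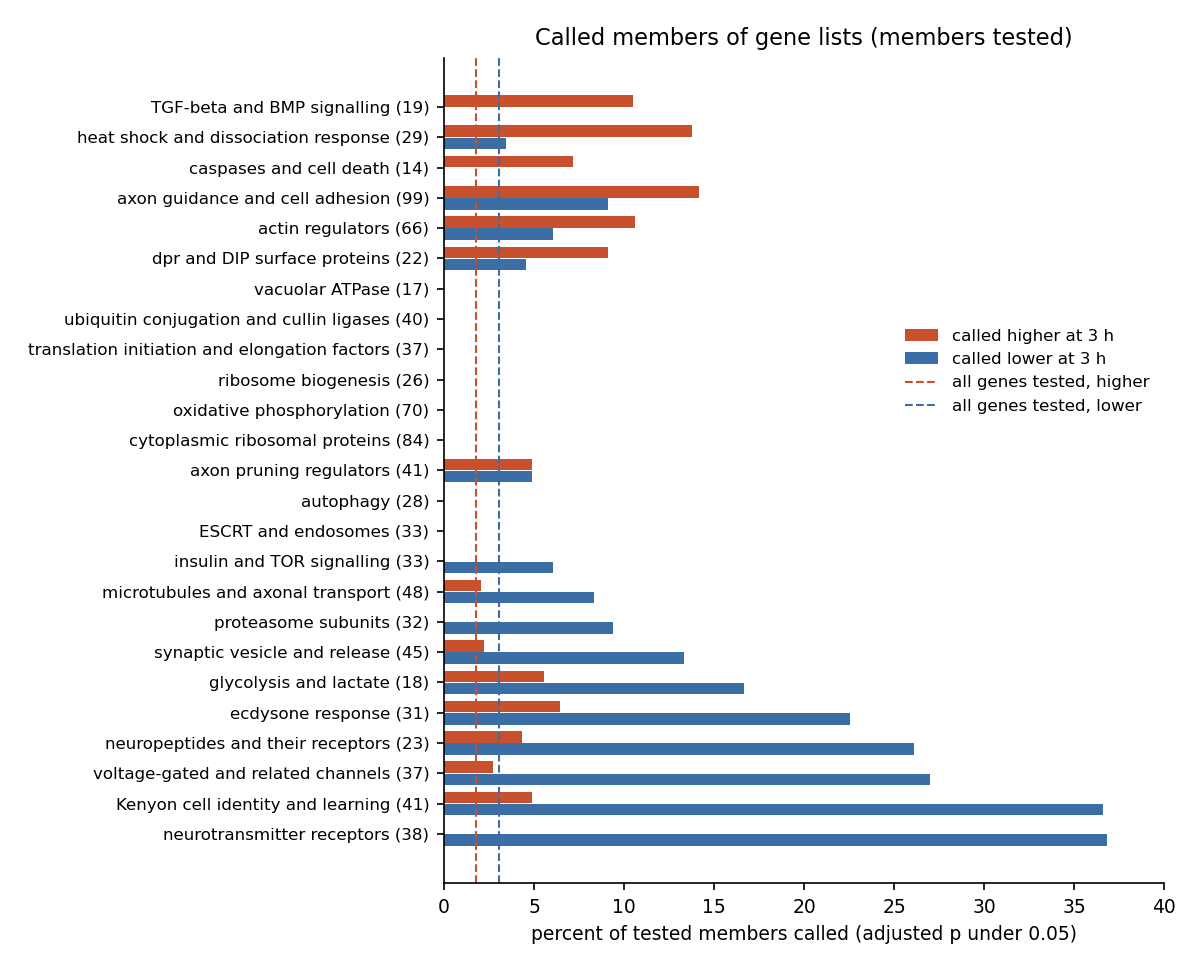
Bars give the percent of the tested members of 25 gene lists called higher or lower at 3 h than at 0 h (limma, adjusted p under 0.05), with the number tested in brackets, and dashed lines mark the shares among all 6277 genes (1.77% and 3.07%). Marker lists, the Osiris and Tweedle families and groups picked after the values were seen are not drawn. The longest bars are the decreases of neurotransmitter receptors and of Kenyon cell identity genes, and 8 of the lists drawn have no called member.

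Genes of transmitter release and of neuropeptides and their receptors changed in part. Of 45 tested genes of synaptic vesicles and release (49 listed), 6 were lower (13.3%, against 3.07% of all tested genes). In the same list 1 was higher (2.22%, against 1.77%), and the median was −0.32. Besides Sytbeta and Rab3-GEF, the vesicular transporter gene prt, which is used in the mushroom body, was at 15, 11 and 12 in the 3 h libraries, against 202, 62, 163 and 146 in the 0 h libraries (log2 change −3.29 ± 0.47 SE, limma adjusted p = 0.00112). Synapsin, Syn, was at 112, 114 and 140 at 3 h and 459, 271, 347 and 235 at 0 h. Complexin, cpx, which clamps and promotes vesicle fusion, was higher, at 1848, 1515 and 2142 in the 3 h libraries, against 759, 741, 451 and 700 in the 0 h libraries (log2 change 1.48 ± 0.22 SE, limma adjusted p = 0.0016). The list of neuropeptides and their receptors also holds genes of dense-core vesicles and peptide processing. Among its 23 tested members (67 listed) 6 were lower (26.1%, against 3.07%) and 1 higher (4.35%, against 1.77%), with a median of −0.44. The peptide gene sNPF, given above, was among the decreases. IA-2, a phosphatase-like protein of dense-core vesicles, was at 483, 347 and 843 in the 3 h libraries, against 5259, 4179, 2791 and 3942 in the 0 h libraries (log2 change −2.92 ± 0.29 SE, limma adjusted p = 1.77e-04). Pal2, an enzyme that amidates peptides, was at 267, 223 and 235 in the 3 h libraries, against 752, 628, 988 and 759 in the 0 h libraries (log2 change −1.67 ± 0.21 SE, limma adjusted p = 5.57e-04). Dh44-R1, a receptor for diuretic hormone 44, was at 15, 24 and 18 in the 3 h libraries, against 148, 197, 113 and 135 in the 0 h libraries (log2 change −2.89 ± 0.37 SE, limma adjusted p = 6.07e-04). MsR2, given above, was the increase. Without the 2 libraries of lowest correlation, a pair chosen after seeing the data, the synaptic decreases numbered 12 in place of 6.

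Genes of Kenyon cell identity and learning were lower in 15 of the 41 tested (45 listed), 36.6% against 3.07% of all tested genes. They were higher in 2, scb and chinmo (4.88%, against 1.77%), and the median over the 41 was −0.41. The 14-3-3 protein gene 14-3-3zeta (leonardo), needed for olfactory learning, was at 4015, 2284 and 4189 in the 3 h libraries, against 16439, 12829, 15835 and 15094 in the 0 h libraries (log2 change −2.15 ± 0.22 SE, limma adjusted p = 1.77e-04). Pka-C1, the catalytic subunit of protein kinase A, was at 4175, 3620 and 6173 in the 3 h libraries, against 17778, 18786, 14066 and 15220 in the 0 h libraries (log2 change −1.85 ± 0.20 SE, limma adjusted p = 2.58e-04). In both the groups did not overlap, as in 303 of the 304 called genes. The adenylyl cyclase gene rut was at 433, 233 and 448 in the 3 h libraries, against 1347, 1118, 764 and 810 in the 0 h libraries (log2 change −1.46 ± 0.28 SE, limma adjusted p = 0.00808). Of the 9 Kenyon cell markers 5 were lower (55.6%, against 3.07%) and 0 higher in limma. The 5 were sNPF, Pka-C1, prt, rut and trio, all of them members of the longer list too. The guanine exchange factor gene trio was at 349, 117 and 287 at 3 h and 710, 688, 1113 and 511 at 0 h, and its call was lost without 3 h replicate 2 (limma adjusted p = 0.054). The markers that did not pass were the transcription factor gene ey, at 444, 622 and 525 at 3 h and 566, 492, 430 and 484 at 0 h, and dac, Fas2 and Mef2.

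Surface proteins moved in both directions. Of 99 tested axon guidance and adhesion genes (132 listed) 14 were higher (14.1%, against 1.77% of all tested genes). The 9 lower were 9.09%, against 3.07%, and the median was 0.13. The decreases included beat-Ia, a secreted immunoglobulin protein of motor axon guidance, at 93, 47 and 126 in the 3 h libraries, against 685, 699, 668 and 668 in the 0 h libraries (log2 change −3.04 ± 0.30 SE, limma adjusted p = 1.77e-04). The neuroligin gene Nlg3 was at 157, 157 and 250 in the 3 h libraries, against 868, 1061, 1312 and 757 in the 0 h libraries (log2 change −2.41 ± 0.25 SE, limma adjusted p = 2.14e-04). The increases included CG31814, at 643, 510 and 475 in the 3 h libraries, against 139, 92, 92 and 136 in the 0 h libraries (log2 change 2.25 ± 0.26 SE, limma adjusted p = 3.13e-04). Dscam3, a relative of the self-recognition receptor Dscam1, was at 1380, 1333 and 1139 in the 3 h libraries, against 455, 458, 416 and 495 in the 0 h libraries (log2 change 1.49 ± 0.18 SE, limma adjusted p = 4.34e-04). Dscam1 itself was at 1550, 933 and 1169 at 3 h and 812, 945, 1146 and 759 at 0 h and did not pass (log2 change 0.40 ± 0.22 SE). The N-cadherin gene CadN was at 3935, 2759 and 3533 at 3 h and 1384, 1790, 1471 and 1220 at 0 h and the Ryk-type receptor gene Drl-2 at 1796, 1059 and 1238 at 3 h and 329, 367, 452 and 524 at 0 h, both called higher. In all 6 called genes the groups were apart, as in 303 of all 304 called genes. Without 0 h replicate 1 or 2 the decreases numbered 5 in place of 9. Of the dpr and DIP surface proteins 22 were tested (32 listed), with 2 higher (9.09%, against 1.77%) and 1 lower (4.55%, against 3.07%). The gene dpr8 was at 1363, 1586 and 1016 at 3 h and 567, 566, 445 and 452 at 0 h (log2 change 1.36 ± 0.21 SE, limma adjusted p = 0.00186). The lower one, dpr18, was at 0, 9 and 5 at 3 h and 53, 63, 36 and 44 at 0 h (log2 change −3.65 ± 0.81 SE, limma adjusted p = 0.0201), a call lost without 0 h replicate 1, 2 or 4 (limma adjusted p = 0.0652 to 0.0902).

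Gene groups picked after the values were seen were followed in the same fit. All 3 tested innexins of 8 were higher, Inx2, ogre and shakB (100%, against 1.77% of all tested genes). Inx2 and ogre are among the 15 largest increases, so part of this count was known when the group was picked. The third, shakB, was at 584, 724 and 755 in the 3 h libraries, against 284, 354, 351 and 286 in the 0 h libraries (log2 change 1.11 ± 0.21 SE, limma adjusted p = 0.00678). The 8 innexins summed to 2777 to 3089 per 3 h library, against 415 to 526 per 0 h library. Of 22 tested septate junction genes 4 were higher (18.2%, against 1.77% of all tested genes) and 0 lower in limma. Of the 22, 7 were at an unadjusted p under 0.05. Nrx-IV, a neurexin of septate junctions, was at 511, 564 and 552 in the 3 h libraries, against 178, 217, 103 and 190 in the 0 h libraries (log2 change 1.70 ± 0.27 SE, limma adjusted p = 0.00239). The sodium pump β subunit gene nrv2 was at 382, 390 and 471 in the 3 h libraries, against 108, 132, 121 and 152 in the 0 h libraries (log2 change 1.69 ± 0.24 SE, limma adjusted p = 0.0011). The median over the 22 was 0.18. The LDL receptor family genes mgl (megalin) and LRP1 were at 1072, 836 and 538 at 3 h and 83, 63, 109 and 191 at 0 h and at 321, 367 and 242 at 3 h and 58, 69, 51 and 89 at 0 h. Both were called higher, with log2 changes of 2.93 ± 0.37 SE and 2.21 ± 0.30 SE. The neighbour of nrv2, nrv1, was at 97, 127 and 109 at 3 h and 17, 21, 59 and 21 at 0 h, a call lost without any 1 library but 0 h replicate 3 (limma adjusted p = 0.0542 to 0.113).

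Innexins, nrv2 and septate junction genes are also used by glia and epithelia, whose markers were summed beside them. The 25 glial markers summed to 646 to 738 at 3 h and to 256 to 420 at 0 h. Of these nrv2 made up 382, 390 and 471 at 3 h, and gcm, gcm2, ltl and Mdr65 were at 0 throughout. The filter was passed by 5 of the 25, and 1 was called higher (20%, against 1.77% of all tested genes). Of the 5, 4 had a positive and 1 a negative log2 change, with a median of 1.69. Among them Gs2 was at 52, 9 and 30 at 3 h and 16, 0, 12 and 0 at 0 h. Gat was at 11, 16 and 49 at 3 h and 9, 5, 30 and 0 at 0 h. The gene bnb was at 28, 44 and 30 at 3 h and 18, 53, 78 and 38 at 0 h. The 16 hemocyte markers summed to 209 to 280 at 3 h and to 71 to 181 at 0 h. The epithelial and tracheal list summed to 2417 to 3007 at 3 h and to 2932 to 3143 at 0 h. Of its 10 tested members 2 were higher, Nrx-IV and baz (20%, against 1.77% of all tested genes). Another 2 were lower, Fas3 and sdt (20%, against 3.07%). The polarity gene baz was at 373, 176 and 157 in the 3 h libraries, against 35, 35, 32 and 34 in the 0 h libraries (log2 change 2.64 ± 0.37 SE, limma adjusted p = 0.0011). The adhesion gene Fas3 was at 37, 23 and 71 in the 3 h libraries, against 284, 195, 327 and 248 in the 0 h libraries (log2 change −2.69 ± 0.38 SE, limma adjusted p = 0.0011). The polarity gene sdt was at 136, 234 and 286 at 3 h and 770, 539, 596 and 769 at 0 h. The fat body list summed to 544 to 985 at 3 h and 823 to 1006 at 0 h, and the muscle list to 187 to 695 at 3 h and 397 to 698 at 0 h. The neuroblast and cell cycle list summed to 1379 to 1716 at 3 h and 1068 to 1506 at 0 h, and the photoreceptor list to 1 to 28 at 3 h and 2 to 26 at 0 h. Whether other cells had a part in these increases was not tested.

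Actin regulators were called in both directions, and 5 of 48 microtubule and transport genes passed. Of 66 tested actin genes (79 listed) 7 were higher (10.6%, against 1.77%) and 4 lower (6.06%, against 3.07%), with a median of 0.21. Without 3 h replicate 3 or 0 h replicate 2 there were 4 higher, and without 3 h replicate 2 there were 2 lower. The β-thymosin gene cib was at 3787, 3481 and 2374 in the 3 h libraries, against 812, 1017, 954 and 1415 in the 0 h libraries (log2 change 1.62 ± 0.23 SE, limma adjusted p = 0.0011). DAAM, a formin gene, was at 326, 337 and 320 in the 3 h libraries, against 142, 133, 143 and 131 in the 0 h libraries (log2 change 1.25 ± 0.23 SE, limma adjusted p = 0.00534). Among the decreases was sals, which promotes growth of actin pointed ends in muscle, at 466, 390 and 611 in the 3 h libraries, against 2725, 2176, 3139 and 2368 in the 0 h libraries (log2 change −2.42 ± 0.21 SE, limma adjusted p = 9.40e-05). CAP, an adaptor of adhesion sites, was at 82, 14 and 62 in the 3 h libraries, against 304, 254, 314 and 290 in the 0 h libraries (log2 change −2.76 ± 0.49 SE, limma adjusted p = 0.00449). The span of sals overlaps that of CG17230 on the other strand, and that of CAP overlaps CG12910, also lower, on the same strand. Of 48 tested microtubule and transport genes (58 listed) 4 were lower (8.33%, against 3.07% of all tested genes) and 1 higher (2.08%, against 1.77%), with a median of −0.05. The stathmin gene stai was at 1559, 1112 and 1115 in the 3 h libraries, against 287, 372, 371 and 381 in the 0 h libraries (log2 change 1.83 ± 0.21 SE, limma adjusted p = 2.79e-04). The MAP1B homologue futsch was at 121, 150 and 212 in the 3 h libraries, against 634, 412, 819 and 638 in the 0 h libraries (log2 change −1.95 ± 0.28 SE, limma adjusted p = 0.00118). The dynein light chain gene ctp was at 490, 303 and 365 in the 3 h libraries, against 1423, 972, 1027 and 1059 in the 0 h libraries (log2 change −1.55 ± 0.22 SE, limma adjusted p = 0.0012). CLIP-190, a plus-end binding protein, was at 32, 26 and 56 in the 3 h libraries, against 206, 186, 137 and 148 in the 0 h libraries (log2 change −2.18 ± 0.36 SE, limma adjusted p = 0.00268). The kinesin gene unc-104, which carries synaptic vesicle precursors, was the fourth decrease, at 1266, 1159 and 1346 at 3 h and 2624, 3185, 3154 and 1873 at 0 h.

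Of the genes known from the pruning of γ axons, 41 were tested (42 listed), and 2 were higher (4.88%, against 1.77% of all tested genes) and 2 lower (4.88%, against 3.07%), with a median of 0.06. The decreases were Sox14 and Mical, given above. The immunoglobulin protein gene plum, which acts with TGF-β signalling in γ neuron pruning, was at 323, 167 and 253 in the 3 h libraries, against 88, 59, 81 and 89 in the 0 h libraries (log2 change 1.60 ± 0.31 SE, limma adjusted p = 0.0094). The zinc-finger factor gene chinmo, which sets Kenyon cell type by birth time, was at 673, 622 and 261 in the 3 h libraries, against 85, 224, 109 and 169 in the 0 h libraries (log2 change 1.80 ± 0.40 SE, limma adjusted p = 0.0185), a call lost without 3 h replicate 1 or 2 or 0 h replicate 1 (limma adjusted p = 0.0546 to 0.0953). In the TGF-β and BMP list (19 tested of 30) plum and the glypican gene dally were higher (10.5%, against 1.77%) and 0 lower in limma. Of the 19, 6 were at an unadjusted p under 0.05. The values of dally were 580, 333 and 318 at 3 h and 101, 162, 201 and 119 at 0 h, and its call was lost without 3 h replicate 1 (limma adjusted p = 0.0651). Of the 14 tested caspase and cell death genes (31 listed) 1 was higher (7.14%, against 1.77%), the effector caspase gene Dcp-1. It was at 543, 456 and 387 at 3 h and 247, 247, 237 and 210 at 0 h. Its call was lost without 3 h replicate 1 or 2 or 0 h replicate 1, 2 or 4 (limma adjusted p = 0.0599 to 0.08).

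The protein turnover and synthesis lists held 3 calls in all. All 32 proteasome subunit genes were tested, with a median log2 change of −0.40. All 32 changes were negative, also under median-of-ratios scaling and quantile normalization, against 2969 of all 6277 tested genes as deposited. Genes measured in the same libraries are not independent, and the signs were not tested. Of the 32, 3 were called lower (9.375%, against 3.07% of all tested genes). Summed over the 32, the values were 10169, 12849 and 11959 at 3 h and 15486, 14800, 15526 and 18086 at 0 h. The called ones encode parts of the regulatory particle. Rpt3 was at 336, 352 and 323 in the 3 h libraries, against 693, 678, 715 and 937 in the 0 h libraries (log2 change −1.15 ± 0.20 SE, limma adjusted p = 0.00381). Rpn12 was at 183, 362 and 216 in the 3 h libraries, against 543, 560, 552 and 634 in the 0 h libraries (log2 change −1.23 ± 0.25 SE, limma adjusted p = 0.0118). Rpn6 was at 429, 519 and 815 in the 3 h libraries, against 1120, 977, 1117 and 1016 in the 0 h libraries (log2 change −0.90 ± 0.23 SE, limma adjusted p = 0.0399). The call of Rpn12 was lost without 3 h replicate 3 (limma adjusted p = 0.0551), and that of Rpn6 without any 1 library but 3 h replicate 3 (0.056 to 0.14). All 17 tested vacuolar ATPase genes were also negative as deposited and under median-of-ratios scaling (16 of 17 under quantile normalization), with a median of −0.55, 0 calls in limma and 8 at an unadjusted p under 0.05. No gene was called in limma among 84 cytoplasmic ribosomal proteins (4 at an unadjusted p under 0.05), 37 translation factors (2), 26 ribosome biogenesis genes (4), 40 ubiquitin enzymes and ligases (5), 28 autophagy genes (2), 33 ESCRT and endosome genes (0) and 70 oxidative phosphorylation genes (0). Of the Osiris and Tweedle families 1 of 49 was tested and did not pass.

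Heat shock, sugar and growth genes completed the lists. Of 29 tested heat shock and dissociation response genes (35 listed) 4 were higher (13.8%, against 1.77% of all tested genes). The 1 lower gene (3.45%, against 3.07%) is near the share of all tested genes. The small heat shock genes Hsp23 and Hsp27 respond to ecdysone as well as to heat. Hsp23 was at 5037, 5094 and 3022 in the 3 h libraries, against 1440, 1389, 1829 and 1350 in the 0 h libraries (log2 change 1.52 ± 0.21 SE, limma adjusted p = 0.0011), and Hsp27 was at 8520, 5499 and 5287 in the 3 h libraries, against 2420, 2762, 3095 and 4182 in the 0 h libraries (log2 change 1.04 ± 0.23 SE, limma adjusted p = 0.0179). Hsp67Bc was at 10855, 7938 and 7015 in the 3 h libraries, against 3311, 3533, 4202 and 4059 in the 0 h libraries (log2 change 1.17 ± 0.19 SE, limma adjusted p = 0.00239). The call of Hsp27 was lost without 3 h replicate 1 or 0 h replicate 1 or 2 (limma adjusted p = 0.0638 to 0.0741). Hsp67Ba, Hsp23 and Hsp27 stand next to each other among tested genes, and all tissue was dissociated at 29 °C. The one decrease was puc, a phosphatase gene induced by JNK signalling, at 205, 151 and 213 at 3 h and 368, 412, 522 and 283 at 0 h, a call lost without any 1 library but 0 h replicate 4 (limma adjusted p = 0.0632 to 0.15). Of 18 tested genes of the glycolysis and lactate list (20 listed) 1 was higher, Hex-A (5.56%, against 1.77% of all tested genes). Lower were the enzyme genes PyK and Pglym78 and the transporter gene MFS3 (16.7%, against 3.07%). Without 0 h replicate 1 or 4 there was 1 lower, and without 3 h replicate 1 there were 5. Pglym78, phosphoglycerate mutase, was at 26, 36 and 6 at 3 h and 115, 72, 154 and 82 at 0 h, a call lost without 3 h replicate 3 or 0 h replicate 1, 2 or 4 (limma adjusted p = 0.0542 to 0.0905). Among 33 tested insulin and TOR pathway genes (44 listed) jeb, the ligand of the receptor Alk, was lower, at 209, 217 and 292 in the 3 h libraries, against 602, 778, 523 and 817 in the 0 h libraries (log2 change −1.50 ± 0.23 SE, limma adjusted p = 0.00204). Myc, a driver of growth, was also lower, at 110, 249 and 244 in the 3 h libraries, against 604, 619, 308 and 474 in the 0 h libraries (log2 change −1.35 ± 0.34 SE, limma adjusted p = 0.0371). The 2 decreases are 6.06% of this list, against 3.07% of all tested genes, and without 0 h replicate 3 the list had 4 lower. The call of Myc was lost without 3 h replicate 1 or 3 or 0 h replicate 1, 2 or 4 (limma adjusted p = 0.0542 to 0.125). Among the 11 neuronal markers 1 was higher (9.09%, against 1.77% of all tested genes) and 1, futsch, lower (9.09%, against 3.07%). The higher one, the ELAV-family RNA-binding protein gene fne, was at 2711, 3118 and 2503 in the 3 h libraries, against 600, 995, 289 and 786 in the 0 h libraries (log2 change 2.19 ± 0.34 SE, limma adjusted p = 0.00186).

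The 3 h libraries could be placed in the time course of 14 stages, given here as stage means without a test. Of the 111 increases 47 had their highest stage mean at 3 h and 29 at 6 h, and 15 in the adult. Of the 193 decreases 47 had theirs at 0 h, 55 in the third instar (L3) and 72 in the adult. Of all 6277 tested genes 994 had theirs at 3 h, 396 at 6 h, 790 at 0 h, 370 in L3 and 1127 in the adult. The choice of genes by 3 h against 0 h in part sets these peaks, since no increase can peak at 0 h and no decrease at 3 h. At 6 h the mean of 54 increases was beyond the 3 h mean, of 55 between the 3 h and 0 h means, and of 2 back past 0 h. Of the decreases 131 were further down at 6 h, 61 between and 1 back past 0 h. The integrin gene scb had a brief peak, with means of 3 in L3, 20.8 at 0 h, 341 at 3 h, 142 at 6 h and 7.25 at 9 h. Inx2 and bou declined more slowly, to 398 and 82.5 at 18 h, and were at 33 and 1.75 in the adult. The sodium channel gene para was at 3098 in L3, 918 at 0 h, 176 at 3 h, 175 at 6 h, 1788 at 18 h and 9682 in the adult. Eip74EF was at 4648 at 0 h, 2212 at 3 h, 436 at 6 h and 114 at 9 h. Sox14 was at 5159.8 at 0 h, 3027 at 3 h, 487 at 6 h and 86.5 at 9 h. The gene br was at 3922 in L3, 1278 at 0 h, 333 at 3 h and 279 at 6 h.

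**Figure D4:**
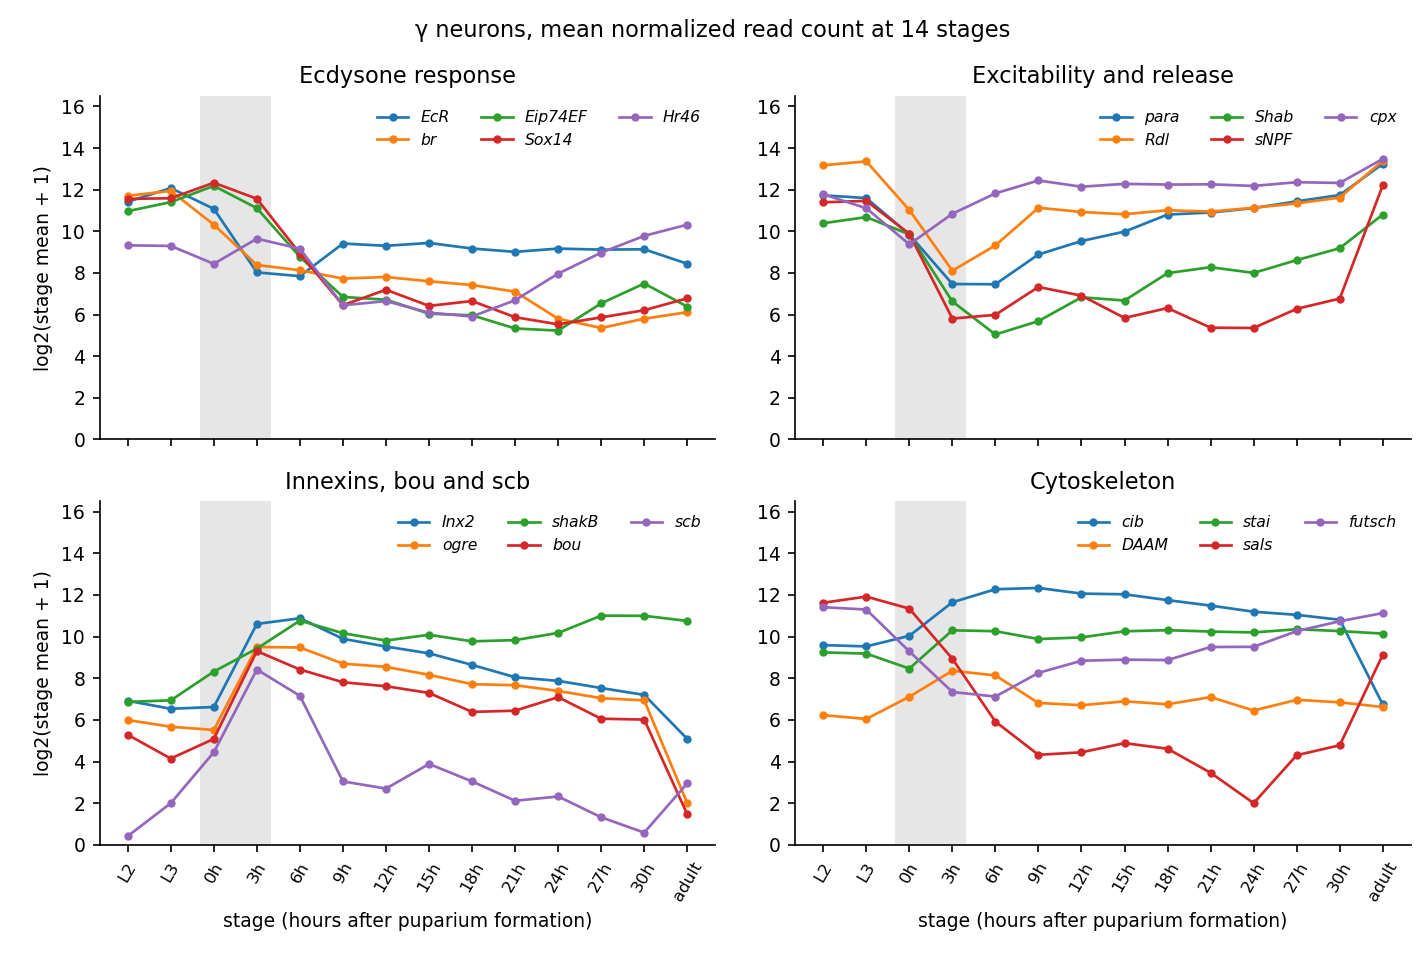
Lines join the mean normalized read count of 5 genes per panel over 14 stages in order, on a log2(mean + 1) scale, with 0 h and 3 h shaded. EcR, para, Rdl, Shab and sNPF drop within the shaded interval, Sox14 and Eip74EF drop within it and further after it, and Inx2, ogre, bou and scb rise within it.

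In separate control libraries most of these genes moved the same way by 6 h. Control γ neurons at 6 h (2 libraries) were set against controls at 0 h (3 libraries), with the spread taken from all 10 control libraries. In that comparison 694 of 6815 tested genes passed (10.2%), 4.77% higher and 5.41% lower. Of the 110 increases at 3 h that were tested there, 61 were higher (55.5%) and 0 lower in limma, 103 had a positive log2 change, and the median was 1.58. Of the 193 decreases 141 were lower (73.1%) and 0 higher, 186 were negative, and the median was −2.08. Among the 5732 tested genes with no call at 3 h the shares were 3.07% higher and 3.98% lower. The time point differs, 6 h in place of 3 h, and no library is shared. Without control replicate A at 6 h the counts were 41 higher and 103 lower, and without replicate C 32 and 123. Inx2 was at 1286 and 1754 at 6 h, against 254, 104 and 217 at 0 h (log2 change 3.06 ± 0.34 SE, limma adjusted p = 1.45e-05). The gene bou was at 467 and 363 at 6 h, against 5, 53 and 55 at 0 h (3.97 ± 0.93 SE, 0.0102). Short neuropeptide F was at 109 and 183 at 6 h, against 835, 1245 and 1152 at 0 h (−2.90 ± 0.27 SE, 2.45e-06), and EcR at 308 and 347 at 6 h, against 2182, 2384 and 3497 at 0 h (5.99e-07). The other 49 increases and 52 decreases tested there did not pass. Of the genes named by rule, these include 11 increases: Hr46, scb, Dscam3, CG31814, CG13055, baz, plum, Fhos, MsR2, dally and app (limma adjusted p = 0.0665 to 0.736). They also include 5 decreases: CG43102, CLIP-190, CG30015, dpr18 and Pglym78 (0.0555 to 0.143). Hr46 was at 212 and 508 at 6 h, against 461, 324 and 543 at 0 h (log2 change −0.40 ± 0.40 SE).

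The libraries at 6 h with perturbed ecdysone signalling were first checked for the targeted genes. EcR was at 2610, 2674 and 2148 in EcR-DN libraries and at 308 and 347 in controls, where reads of the introduced receptor cannot be told from those of the gene. Eip75B was at 18185, 19423 and 14794 in the libraries labelled E75 RNAi and at 6318 and 8483 in controls, so its transcript was not lower there. Sox14 was at 774, 530 and 428 in Sox14 RNAi libraries and at 471 and 503 in controls at 6 h, while at 0 h it was at 939, 1118 and 996 in Sox14 RNAi libraries and at 7347, 7888 and 7100 in controls. The 3 comparisons share the 2 control libraries at 6 h with each other and with the comparison of control stages, so their counts are not independent of one another.

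Genes that fell by 3 h were mostly higher in EcR-DN neurons than in controls at 6 h, and genes that rose were mostly lower. In that comparison 673 of 7543 genes passed (8.92%), 5.71% higher and 3.21% lower in EcR-DN. Of the 193 decreases 147 were higher (76.2%) and 0 lower, with a median of 2.07. Of the 110 tested increases 60 were lower (54.5%) and 2 higher, Hex-A and Xrp1, with a median of −1.28. The log2 difference of Inx2 was −2.29 ± 0.25 SE (limma adjusted p = 2.89e-06), of bou −3.41 ± 0.51 SE (1.10e-04), of sNPF 3.85 ± 0.31 SE (5.63e-08) and of para 3.61 ± 0.30 SE (9.88e-08). Without control replicate C at 6 h, 130 decreases were higher, and 38 increases were lower and 0 higher. The other 46 decreases and 48 increases did not pass. Of the genes named by rule, these include 11 decreases: Blimp-1, Dh44-R1, Dop1R2, jeb, Eip75B, Rpt3, Rpn12, Rpn6, CG4577, dpr18 and Mical (limma adjusted p = 0.0685 to 0.767). They also include 15 increases: stai, scb, baz, CG17646, cpx, Hr46, plum, Fhos, Reck, MsR2, dally, chinmo, app, Cyp9c1 and ImpL1 (0.0558 to 0.966). The log2 difference of Blimp-1 was 0.29 ± 0.39 SE, of Dop1R2 0.34 ± 0.22 SE and of cpx 0.04 ± 0.29 SE.

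In the libraries labelled E75 RNAi, where 9.73% of genes passed (5.87% higher, 3.86% lower), 106 of the 193 decreases were higher and 11 lower, and of the 110 increases 25 were lower and 14 higher. In Sox14 RNAi libraries, with 7.54% called (2.81% higher, 4.73% lower), 47 of the decreases were higher and 17 lower, and 53 of the increases were lower and 5 higher. Individual genes took different values in these sets. The log2 difference from controls of para was 4.24 ± 0.30 SE in libraries labelled E75 RNAi (limma adjusted p = 1.11e-08) and −0.59 ± 0.30 SE in Sox14 RNAi (0.316). That of sNPF was −1.35 ± 0.31 SE (0.00659) and 2.29 ± 0.31 SE (5.48e-05). For CG31814 it was −0.43 ± 0.52 SE (0.678) and −5.22 ± 0.52 SE (1.58e-06), and for Hsp23 −2.28 ± 0.17 SE (1.65e-08) and 0.65 ± 0.17 SE (0.0217). Without control replicate A at 6 h, 30 of the decreases were higher in Sox14 RNAi libraries, and without replicate C 10 were lower. The increases higher in Sox14 RNAi numbered 3 without either. In the libraries labelled E75 RNAi the lower decreases numbered 2 without replicate C, and the increases numbered 16 lower without replicate C and 9 higher without replicate A. The differences between the 3 perturbations were not tested.

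**Figure D5:**
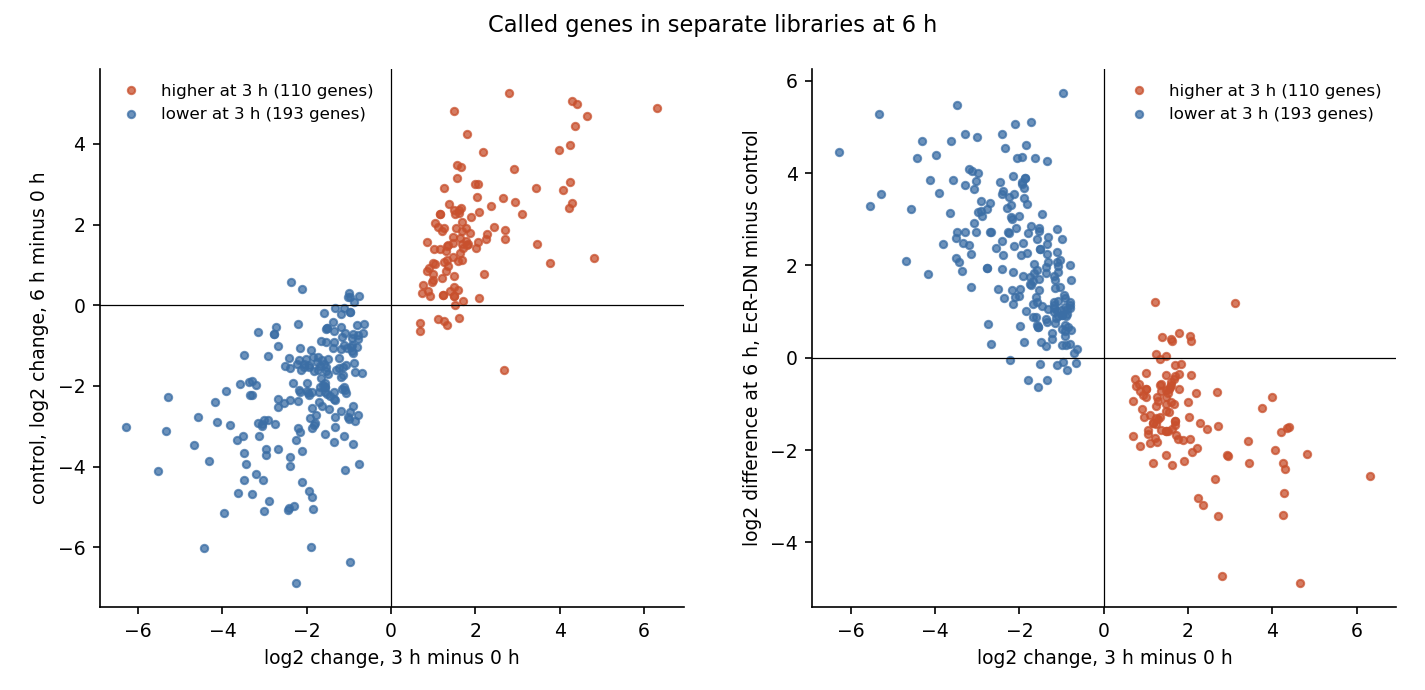
Each point is a gene called at 3 h against 0 h, with its log2 change at 3 h minus 0 h on the horizontal axis and, on the vertical axis, the log2 change of control libraries at 6 h minus 0 h (left) or the log2 difference of EcR-DN minus control at 6 h (right). Of 193 decreases 186 lie below 0 on the left and 184 above 0 on the right, and both panels share the 2 control libraries at 6 h.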

How the data were processed

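Libraries of 1000 sorted cells were made by 3′-end MARS-seq. The deposited tables hold read counts that the authors had normalized and rounded to integers, which were treated as a score with no fixed range and not as raw counts. Programs named in the submitters' processing notes are bcl2fastq, HISAT 0.1.5 and HOMER, without their roles. The normalization method, genome build, counting strand and read depth are not given in the sources used here, and no counting intervals are given. Every column was mapped to a sample by its name (0 unmapped columns).

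Groups follow the stage labels. Genes with a value of at least 10 in 3 of the 7 libraries were tested on log2(value + 1) with limma 3.58.1 in R 4.3.3 (empirical Bayes with a trend, two-sided, Benjamini-Hochberg adjustment over all tested genes, threshold 0.05). Adding 1 pulls in the fold changes of genes with low values. Because log2 values are averaged, a library at or near 0 can also enlarge a change. Octbeta2R, which was not called, was at 73, 0 and 25 at 3 h. Its means were 32.7 at 3 h and 33.25 at 0 h, and its log2 change was −1.39. The perturbation table was fitted alone, with a value of at least 10 in 2 libraries, over 10 control libraries or over 11 libraries at 6 h. An exact two-sided permutation test of 3 against 4 libraries cannot give a p below 0.0571, so single values have no such test. Named genes are the 15 largest increases and 15 largest decreases among called genes with no overlap between groups whose mean reached 50 in 1 of the groups, EcR, Eip75B and Sox14, all tested ecdysone response genes, and, for each list holding 2 or more called members, its 4 smallest p-values. Some further members are given for context. Members and lists were chosen with earlier results of these data known, so no p over a list is given. Gene names were matched to RefSeq for 6246 of 6277 tested genes, and spans come from the Ensembl annotation. Alternatives covered the pseudocount, filter, scaling, libraries fitted, variance model, replicate block and each library left out.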

Additional observations from a re-analysis of the deposited data

Results flagged for a closer look

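Of 110 sets of 0 h values examined, 9 had 1 of the 4 libraries standing apart from the other 3 by a gap above Dixon's critical share of the range. Chance alone flags about 1 in 20 groups. In replicate 1, the sodium channel gene para was at 1202 normalized reads, against 787 to 856 in the other 3, stai was at 287 (371 to 381) and Cbp53E at 5 (3 in each). In replicate 2, Calx was at 245 (83 to 101). In replicate 3, CG17646 was at 18 (3 to 5) and Hr51 at 357 (269 to 283). In replicate 4, Rpt3 was at 937 (678 to 715), Cyp9c1 at 32 (1 to 2) and ImpL1 at 3 (0 in each). For all but Hr51, which did not pass the test, the 3 h libraries lay on the far side of every 0 h value, the one that stood apart included.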

How the results depend on the processing

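No result changed direction past the threshold under any alternative. Of 304 genes changed (111 higher, 193 lower), the count was 849 (394 and 455) with all 52 γ neuron libraries fitted, where increases made up 46.4% of calls, 482 (194 higher) with all 64 libraries, 121 (46 and 75) with no trend and robust variances, and 210 to 356 with 1 library left out (74 to 143 higher, 126 to 213 lower). A replicate block gave 166 (55 and 111). Same-numbered libraries did not deviate together (r = −0.084, 0.001 and −0.075). Deviations from means of 3 and 4 libraries cannot show whether the numbers pair libraries, and the labels do not say. The causes were not tested. Pseudocount 10, no filter, a minimum of 50, median-of-ratios scaling and quantile normalization gave 293 to 369, and leaving out 3 h replicate 1 with 0 h replicate 3, chosen after seeing the data, 425. Of the 135 called genes named or listed, 47 passed under all 17 alternatives, 55 with no trend and robust variances and 84 with the block. For controls at 6 h against 0 h the 694 calls became 459 with 5 libraries fitted, 517 with the block and 371 to 693 with 1 library left out. EcR-DN against controls gave 673 calls (432 to 551, block 589), the libraries labelled E75 RNAi 734 (445 to 794, block 696) and Sox14 RNAi 569 (370 to 436, block 515).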
